A study of Homo sapiens with 6 samples.

Results

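Variation between libraries that share a number was described across all 6 libraries of the study, which is every library of the series. The libraries were made from AF22, an established human neural stem cell line that is kept as an adherent culture, and their titles give each of them a group and a number from 1 to 3. In the 3 control libraries the cells carried a control short hairpin RNA (shControl, genotype given as WT), and in the 3 knockdown libraries the cells were BMI1/COMMD3-BMI1 knockdown derivatives of the same line (BMI1/COMMD3-BMI1_KD). BMI1 encodes a Polycomb repressor subunit, and COMMD3-BMI1 is a read-through transcript of BMI1 and its neighbour COMMD3. Every number therefore had 2 libraries, 1 from each group, and library numbers were compared with group held as a block, so that a gene stood out only where the control libraries and the knockdown libraries differed between numbers in the same way. Control and knockdown were not tested against each other. The labels do not say what a number marks, or whether libraries came from separate cultures, so a culture, a day and a preparation cannot be told apart, and p-values measure only the spread between these libraries.

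A neural stem cell line in culture divides while it keeps progenitor genes such as SOX2, NES and PAX6 on. Around this core, cultured cells adjust several programs to their surroundings: they lay down extracellular matrix, tune sterol and fatty acid synthesis through SREBP, switch amino acid and transfer RNA synthetase genes through the transcription factor ATF4, and pass through the cell cycle at different rates. Such programs are often called the state of a culture, and genes that move with the library number in both groups are described here by these programs.

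The control group was sequenced to 5496683, 6387898 and 6870122 counts from library 1 to 3 and the knockdown group to 4962745, 7304714 and 9640349, so depth rose with the number in both groups. BMI1 had 463 to 606 counts in the control libraries and 159 to 250 in the knockdown libraries, and the groups did not overlap. In CPM (counts scaled to a common library size, with TMM factors) BMI1 was at 85.1, 89.9 and 87.4 in control libraries 1 to 3. In knockdown libraries 1 to 3 it was at 39.9, 21.5 and 26.2 CPM, so remaining BMI1 differed between numbers within the knockdown group. The part of this in the differences between knockdown libraries was not tested. Of 32 neural stem and radial glia genes looked for, 26 passed the filter on low counts, and their summed level was 7719 and 8203 CPM in number 1, 7077 and 7658 CPM in number 2 and 7958 and 8366 CPM in number 3. The other 6 included HES5, HOPX, NR2E1 and DMRT3, which had 0 counts in every library. Markers of other cell types were present as well: all 22 mesenchymal and fibroblast genes had counts, while PTPRC, CD3E and the globin genes HBB, HBA1, HBA2, HBG1 and HBG2 had none.

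Library number accounted for 53.6% of the summed variation of log2 CPM over 13179 tested genes, with 2 degrees of freedom, group for 28.3% with 1, and what neither explained for 18.1% with 2. Of 15 library pairs, control library 1 and knockdown library 1 had the lowest chi-square per gene, 2.74, taken over all genes that reached 20 counts in that pair. This value grows with depth, and these are the 2 libraries with the fewest counts. The lowest within a group was 3.19, for control libraries 2 and 3, and pairs within the knockdown group ran from 7.13 to 16.8. On the second principal component, which held 20.4% of the variance, number accounted for 87.5% of the spread of the 6 libraries. There both libraries of number 1 lay at 10.6 and 17.3, and both of number 3 at -19.8 and -16.0. Number 2 was split: control library 2 lay at -3.9 and knockdown library 2 at 11.7 on that component, and knockdown library 2 stood apart from the other 5 on the first, at 41.4.

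**Figure D1:**
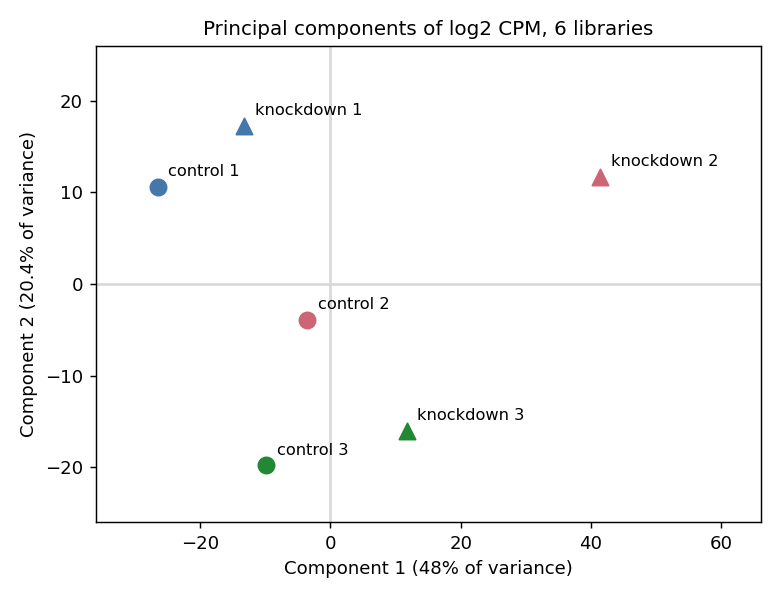
Each point is 1 library, placed by its first and second principal components of log2 CPM, which hold 48% and 20.4% of the variance. Circles are control, triangles knockdown, and colours the library number. The 2 libraries of number 1 lie together at the top left and the 2 of number 3 at the bottom, while knockdown library 2 stands alone at the right.

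The fit calls a gene only where both groups differed between numbers in a similar way, so the calls do not test whether the groups agree. A total of 808 of 13179 genes (6.13%) differed between any of the 3 numbers at an adjusted p under 0.05 (edgeR quasi-likelihood test, Benjamini-Hochberg adjustment), and 3884 had an unadjusted p under 0.05. Number 2 against number 1 gave 835 higher genes (6.34%) and 475 lower genes (3.6%). Number 3 against number 1 gave 182 higher (1.38%) and 92 lower (0.698%). Number 3 against number 2 gave 58 higher (0.44%) and 130 lower (0.986%). These 3 comparisons share libraries, so their counts are not independent of each other.

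The balance between directions moved with the scaling. By total count alone, number 2 against 1 gave 1048 higher and 293 lower genes. With the trend of GC content and transcript length removed from each library it gave 564 higher and 866 lower. Single libraries also set the counts. Leaving out 1 library leaves its number with a library from 1 group only, so that number's differences no longer need the groups to agree. A comparison of the other numbers then rests on the libraries of those numbers alone. Leaving out the control or the knockdown library of the third number is therefore nearly the same fit, and these are not 6 separate checks. Leaving out control library 1, 2 or 3 gave 853, 6328 and 1511 genes for any difference, and leaving out knockdown library 1, 2 or 3 gave 235, 3746 and 1244, with 1 residual degree of freedom in each fit. For number 2 against 1 the counts in the same order were 958, 5078 and 1675 and then 21, 2102 and 1684, against 1310 with all 6 libraries. For number 3 against 1 they were 194, 3308 and 246 and then 37, 3311 and 174, against 274, and for number 3 against 2 they were 311, 4189 and 351 and then 285, 647 and 108, against 188. Of 146 differences of named genes, 37 were called in each of the 14 alternatives that kept the group block, and 50 lost their call only without knockdown library 1.

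The 2 groups share no library, so each was set beside the other as a repeat. Of 94 genes with a mean of at least 5 CPM that were at least 1 log2 unit higher in control library 2 than in control library 1, 57 (60.6%) were also at least 1 log2 unit higher in knockdown library 2 than in knockdown library 1, and none was that much lower. Among all 11447 genes at this level, 290 (2.53%) were that much higher in the knockdown pair, so the 57 made up 19.7% of the knockdown genes. Of the 14 genes that were that much lower in control library 2, 11 (78.6%) were so in knockdown as well, which is 5.9% of 187 knockdown genes (1.63% of all). For number 3 against 1 the count was 45 of 75 higher genes (60%), or 41.3% of 109 in knockdown (0.952% of all), and 16 of 33 lower genes (48.5%), or 37.2% of 43 (0.376% of all). In the latter 1 of the 33 genes was that much higher in knockdown. For number 3 against 2 it was 12 of 23 higher genes (52.2%), or 15.2% of 79 (0.69% of all), and 41 of 62 lower genes (66.1%), or 39.4% of 104 (0.909% of all). Across 13179 genes the log2 differences in control and in knockdown had a Pearson correlation of 0.512, 0.566 and 0.455 for the 3 comparisons, as a description, since genes are not independent and the libraries of a pair differ in depth in the same direction. Whether the groups differed in the size of the differences was not tested: over the genes called in number 2 against 1 the median absolute difference was 0.403 in control and 0.683 in knockdown, and over all genes it was 0.166 and 0.279.

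**Figure D2:**
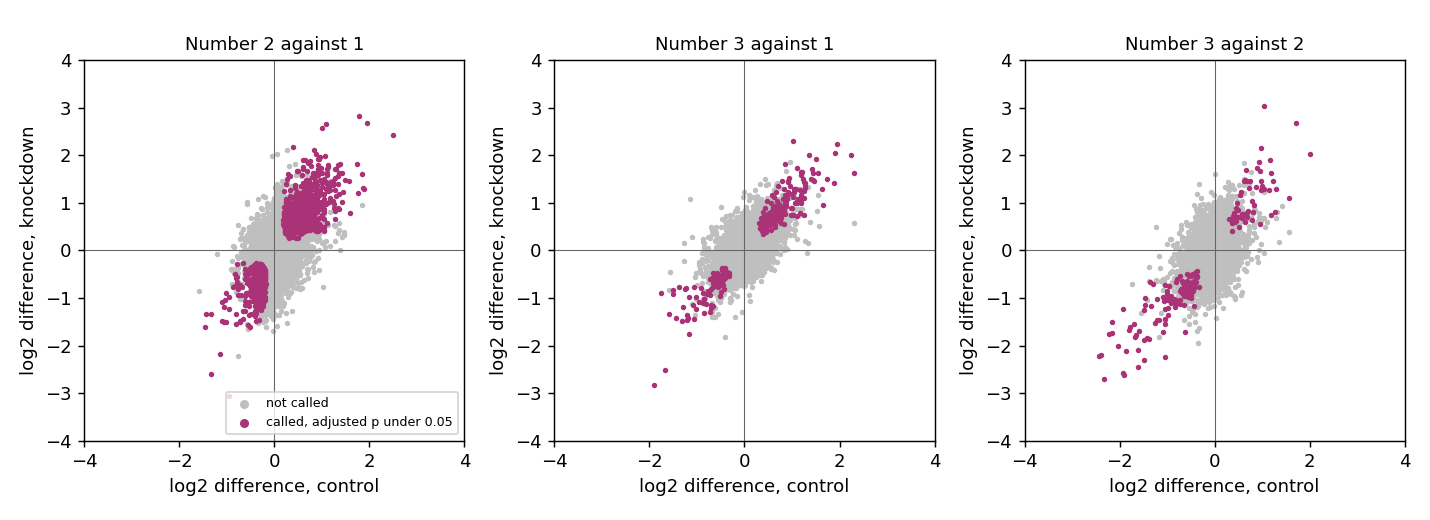
Each point is 1 gene with a mean of at least 5 CPM, placed by its log2 difference between 2 library numbers in control (x axis) and in knockdown (y axis), for numbers 2 and 1, 3 and 1, and 3 and 2. Called genes, in purple, lie at the lower left and upper right in every panel, and all called genes have the same direction in both groups. The test itself selects for this, since its spread is the disagreement of the groups.

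Among the 808 genes that differed between any numbers, the commonest pattern was a lowest level in number 1, with 309 genes. These were 38.2% of the called genes, and 21.4% of all tested genes had this pattern. A highest level in number 2 followed, with 201 (24.9% against 17.4% of all). Number 1 was highest for 97 (12% against 19.6%) and number 3 lowest for 71 (8.8% against 11.4%). Number 2 was lowest for 66 (8.2% against 19.6%) and number 3 highest for 64 (7.9% against 10.7%). In each of these genes the named number was the extreme in both groups, which follows largely from the test, whose spread is the disagreement of the groups. The leading genes of each pattern are given next, starting with extracellular matrix.

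Most of the matrix genes tested were higher in number 2 than in number 1. Of 41 tested genes for collagens and other matrix proteins, 25 were higher in number 2 than in number 1 and 1, NID2, was lower, against 6.34% and 3.6% of all genes. The median log2 difference of the list was 0.38 in control and 0.78 in knockdown, beside a median of 0 over all genes in each group. The higher genes covered fibrillar collagens (COL1A1, COL5A1, COL5A2, COL11A1), basement membrane proteins (COL4A1, COL4A5, COL18A1, LAMA1, LAMA4, LAMB1, LAMB2, NID1, HSPG2, AGRN), collagen VI chains (COL6A1, COL6A2), fibronectin (FN1) and fibrillins (FBN1, FBN2). In the median gene of the list library number accounted for 73.9% of the sum of squares, against 50.7% in the median of all genes. Over both groups the list's median was 0.58, and without knockdown library 1 it was 0.41. The number of higher genes was 24, 32 and 25 when control library 1, 2 or 3 was left out, and 4, 29 and 25 when knockdown library 1, 2 or 3 was.

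COL1A1 (chr17:50184101-50201631 in GRCh38.p14), which encodes a chain of type I collagen, was measured at 52.8, 131 and 80.4 CPM in the control group (libraries 1 to 3) and 48.4, 159.8 and 90.6 CPM in the knockdown group (libraries 1 to 3). Both libraries of number 2 were above the other 4, and the order 1, 3, 2 was the same in both groups. The log2 difference of number 2 from number 1 was 1.51 ± 0.11 (SE, edgeR adjusted p = 0.000865), and that of number 3 from number 2 was -0.76 ± 0.10 (SE, edgeR adjusted p = 0.0108). COL5A1, a chain of type V collagen, which regulates fibril assembly, had 78.3, 169 and 124 CPM in control and 88.3, 275 and 151 CPM in knockdown, from library 1 to 3, and its log2 difference of number 2 from number 1 was 1.38 ± 0.12 (SE, edgeR adjusted p = 0.00256). COL18A1, the precursor of endostatin in basement membranes, differed in shape: at 153, 282 and 275 CPM in control and 149, 355 and 291 CPM in knockdown, from library 1 to 3, it was low in number 1 and of similar level in numbers 2 and 3. Its difference of number 2 from number 1 was 1.07 ± 0.10 (SE, edgeR adjusted p = 0.00285), and that of number 3 from number 2 was -0.16 ± 0.09 (SE, edgeR adjusted p = 0.387), which did not pass the test.

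The gene with the largest increase in number 2 over number 1, among called genes whose libraries did not overlap between numbers and averaged at least 5 CPM, was MAMDC2 (chr9:70043581-70226972 in GRCh38.p14), which encodes a secreted proteoglycan-type protein with MAM domains. It was measured at 4.41, 26.4 and 21.9 CPM in the control group (libraries 1 to 3) and 9.93, 54.7 and 41.1 CPM in the knockdown group (libraries 1 to 3). Number 1 was lowest by several fold in both groups, although the knockdown libraries stood above the control libraries at every number. The log2 difference of number 2 from number 1 was 2.50 ± 0.16 (SE, edgeR adjusted p = 0.000865) and that of number 3 from number 1 was 2.15 ± 0.16 (SE, edgeR adjusted p = 0.00103). DLK1, a membrane protein of the Notch ligand family that is found on immature cells, had 37.3, 95.1 and 53.7 CPM in control and 36.4, 127 and 61.3 CPM in knockdown, from library 1 to 3. Its log2 difference of number 2 from number 1 was 1.58 ± 0.12 (SE, edgeR adjusted p = 0.00101), and number 3 lay between the others. FLNC, an actin crosslinker, was higher in number 2 than in number 1 by 1.01 ± 0.10 (SE, edgeR adjusted p = 0.00359) on the log2 scale, and NT5E, the surface enzyme CD73, by 0.67 ± 0.08 (SE, edgeR adjusted p = 0.00747), a call lost without knockdown library 1 (edgeR adjusted p = 0.153).

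COL8A1, DHRS3, NPEPL1, PCDHA12 and MXRA5 made up the rest of the 6 genes with the largest increase from number 1 to number 2 under the same limits, at log2 differences of 2.48, 2.47, 2.02, 1.85 and 1.81. COL8A1 is a short-chain collagen, MXRA5 a matrix remodelling protein, and DHRS3 a retinaldehyde reductase. All 5 lost their call without knockdown library 1, with adjusted p of 0.0623, 0.0747, 0.31, 0.0915 and 0.0747 there (edgeR), while MAMDC2, COL1A1, COL5A1, COL18A1, DLK1 and FLNC were called in each of the 14 alternatives that kept the group block.

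**Figure D3:**
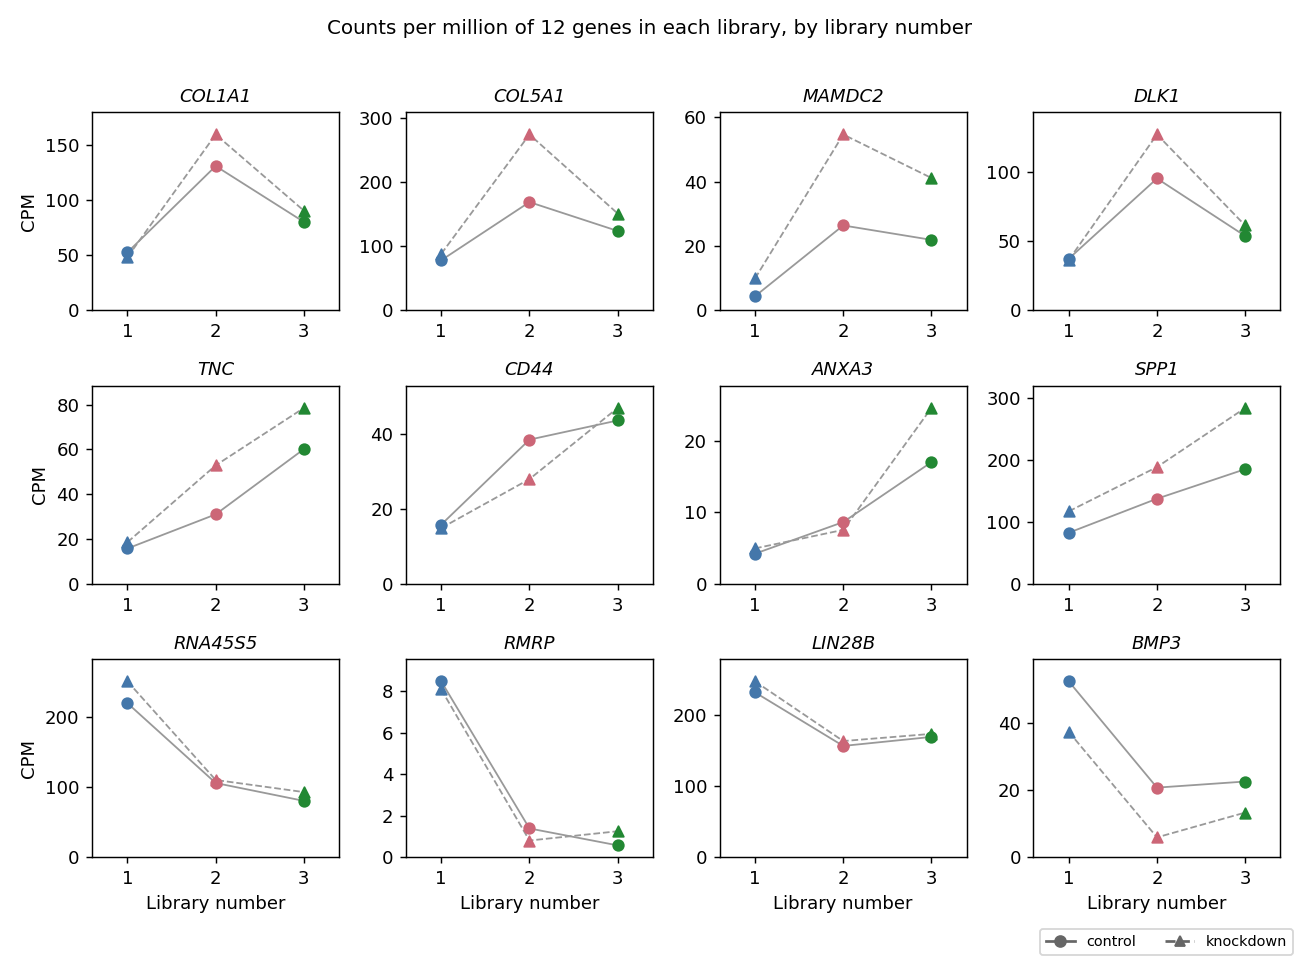
CPM (y axis, linear, from 0) of 12 genes by library number (x axis), with control libraries as circles on solid lines and knockdown libraries as triangles on dashed lines, 1 library per point. COL1A1, COL5A1 and DLK1 peak in number 2, TNC, CD44, ANXA3 and SPP1 are highest in number 3, and RNA45S5, RMRP, LIN28B and BMP3 are highest in number 1, in both groups.

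Genes of BMP and TGF-beta signalling, which controls matrix production and the fate of neural progenitors, also held genes that were higher in number 2. Of 30 tested targets and regulators, 10 were higher in number 2 than in number 1 (background 6.34%) and 1, the receptor BMPR1B, was lower (background 3.6%). Numbers 3 and 1 differed for 5 genes, all higher in number 3 (background 1.38%), a count that was 4, 15 and 6 when control library 1, 2 or 3 was left out, and 2, 15 and 3 when knockdown library 1, 2 or 3 was. The list's median for number 2 against 1 was 0.29 in control and 0.51 in knockdown. Among the higher genes were the feedback inhibitors SMAD6 and SMAD7 at log2 differences of 0.81 and 1.23, the ligand TGFB2 at 2.04, and TGFBI, a matrix protein induced by TGF-beta, at 1.30. The BMP antagonist GREM1 was measured at 2.02, 8.03 and 11.1 CPM in control and 7.24, 22.7 and 22.9 CPM in knockdown, from library 1 to 3. Number 1 was lowest in both groups, with a log2 difference of number 3 from number 1 of 1.91 ± 0.24 (SE, edgeR adjusted p = 0.00798). With all 6 libraries 16 of the list were higher in number 2 than in number 1 at an unadjusted p under 0.05, and DESeq2 called 3. The number of higher genes in number 2 against 1 by edgeR was 9, 17 and 12 when control library 1, 2 or 3 was left out, and 0, 9 and 12 when knockdown library 1, 2 or 3 was, and TGFB2 had an adjusted p of 0.491 without knockdown library 1.

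BMP3, a BMP family ligand that acts against the other BMPs, was the gene with the largest decrease from number 1 to number 2 among called genes whose libraries did not overlap between numbers and averaged at least 5 CPM. Its level was 52.2, 20.7 and 22.5 CPM in the control group (libraries 1 to 3) and 37.2, 5.94 and 13.3 CPM in the knockdown group (libraries 1 to 3). Both libraries of number 1 exceeded the other 4, and the log2 difference of number 2 from number 1 was -1.83 ± 0.25 (SE, edgeR adjusted p = 0.00986). SMOC1, a secreted BMP antagonist of the basement membrane, had 27.2, 13.9 and 8.37 CPM in control and 23.6, 2.56 and 3.87 CPM in knockdown, from library 1 to 3. It fell from number 1 to number 2 by 1.76 ± 0.38 (SE, edgeR adjusted p = 0.0299) on the log2 scale, a call that was lost with DESeq2 and without knockdown library 1. PVALB, a calcium buffer, and CYP26A1, which degrades retinoic acid, were lower in number 3 than in number 1 by 1.43 ± 0.21 (SE, edgeR adjusted p = 0.0164) and 2.51 ± 0.33 (SE, edgeR adjusted p = 0.00888). Both lost their call without knockdown library 1, at edgeR adjusted p of 0.145 and 0.0544.

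A second set of genes rose from number 1 through to number 3. TNC (chr9:115019575-115118157 in GRCh38.p14), which encodes tenascin-C, a matrix glycoprotein of the neural stem cell niche, was measured at 15.8, 31 and 60.2 CPM in the control group (libraries 1 to 3) and 18.6, 52.9 and 78.5 CPM in the knockdown group (libraries 1 to 3). The order 1, 2, 3 held in both groups, and the log2 difference of number 3 from number 1 was 2.00 ± 0.15 (SE, edgeR adjusted p = 0.00103) and of number 3 from number 2 0.74 ± 0.12 (SE, edgeR adjusted p = 0.0254). SPP1, the secreted matrix ligand osteopontin, had 82.5, 137 and 185 CPM in control and 117, 189 and 284 CPM in knockdown, from library 1 to 3, with the same order and a log2 difference of number 3 from number 1 of 1.22 ± 0.08 (SE, edgeR adjusted p = 0.000968). CD44, a receptor for hyaluronan and osteopontin, had 15.8, 38.5 and 43.6 CPM in control and 14.9, 27.9 and 46.9 CPM in knockdown, from library 1 to 3, and differed by 1.57 ± 0.17 (SE, edgeR adjusted p = 0.00516) between numbers 3 and 1. All 3 genes were called in each alternative with the group block.

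ANXA3, an annexin, was measured at 4.23, 8.65 and 17 CPM in the control group (libraries 1 to 3) and 4.97, 7.56 and 24.6 CPM in the knockdown group (libraries 1 to 3). Number 3 was highest in both groups, with log2 differences of 2.18 ± 0.24 (SE, edgeR adjusted p = 0.00576) from number 1 and 1.37 ± 0.20 (SE, edgeR adjusted p = 0.0162) from number 2. EMP1, an epithelial membrane protein, had 21.7, 30.7 and 60.4 CPM in control and 24.2, 15 and 67.4 CPM in knockdown, from library 1 to 3. In EMP1 the control and knockdown libraries of number 2 lay on opposite sides of number 1, and the call rested on number 3, at 1.53 ± 0.23 (SE, edgeR adjusted p = 0.0195) from number 2. LOX, a collagen crosslinking enzyme, was higher in number 3 than in number 2 by 1.10 ± 0.19 (SE, edgeR adjusted p = 0.0315) on the log2 scale. Of the 41 matrix genes 9 were lower in number 3 than in number 2 (background 0.986%), and only LOX and TNC were higher (background 0.44%). The count of lower genes moved with the library left out. The list's median there was -0.35 with all libraries, -0.43 without control library 2 and -0.21 without knockdown library 2.

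Immediate early and AP-1 genes, which respond to growth factors within minutes to hours, did not move as one. Of 28 tested, 4 were higher in number 3 than in number 1 (FOSL1, FOSL2, ARC and TRIB1; background 1.38%) and 1, EGR1, was lower (background 0.698%). The number of higher genes was 1, 15 and 5 when control library 1, 2 or 3 was left out, and 0, 15 and 2 when knockdown library 1, 2 or 3 was. ARC, an activity-regulated gene, had 3.49, 6.49 and 12.3 CPM in control and 4.97, 4.18 and 14.7 CPM in knockdown, from library 1 to 3, and FOSL2, an AP-1 subunit, had 9.56, 13.6 and 19.6 CPM in control and 10.8, 12.7 and 23.8 CPM in knockdown, from library 1 to 3. EGR1, a zinc finger factor of the same early response, had 28.5, 37.1 and 15.7 CPM in the control group (libraries 1 to 3) and 26.5, 26.4 and 12.9 CPM in the knockdown group (libraries 1 to 3). It was lowest in number 3 in both groups, with a log2 difference from number 2 of -1.14 ± 0.14 (SE, edgeR adjusted p = 0.00895). LIF, a cytokine that activates STAT3, was higher in number 2 than in number 1 by 1.19 ± 0.20 (SE, edgeR adjusted p = 0.0186), and BHLHE41, a clock-linked repressor, was higher in number 3 than in number 1 by 1.81 ± 0.24 (SE, edgeR adjusted p = 0.0098). The higher calls of ARC, FOSL1, FOSL2, LIF and BHLHE41 were lost without knockdown library 1, at edgeR adjusted p of 0.087, 0.0798, 0.16, 0.267 and 0.116.

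Genes induced by ATF4, the transcription factor of the amino acid and integrated stress responses, included many that were lower in number 2 than in the other numbers. Of 29 tested, 11 were lower in number 2 than in number 1 (background 3.6%) and 1, STC2, was higher (background 6.34%). In number 3 against number 2, 9 were higher (background 0.44%) and none was lower, with 0 lower genes at an unadjusted p under 0.05 as well. The median log2 difference for number 2 against 1 was -0.22 in control and -0.72 in knockdown, and for number 3 against 2 it was 0.35 and 0.82. Across both comparisons the called genes included ATF4 itself, the serine and one-carbon enzymes PHGDH, PSAT1, SHMT2, MTHFD2 and ALDH1L2, asparagine synthetase (ASNS), the synthetases GARS and WARS, and the amino acid carriers SLC7A5 and SLC7A11. The number of lower genes in number 2 against 1 was 8, 22 and 17 when control library 1, 2 or 3 was left out, and 0, 14 and 17 when knockdown library 1, 2 or 3 was, and 17 were lower at an unadjusted p under 0.05 with all 6. The number of higher genes in number 3 against 2 was 14, 24 and 18 when control library 1, 2 or 3 was left out, and 13, 17 and 9 when knockdown library 1, 2 or 3 was.

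CHAC1, which breaks down glutathione and is a classic ATF4 target, was measured at 21.1, 10.3 and 23.7 CPM in the control group (libraries 1 to 3) and 14.3, 4.86 and 19.1 CPM in the knockdown group (libraries 1 to 3). In each group number 2 had less than either of the others. The log2 difference of number 3 from number 2 was 1.54 ± 0.20 (SE, edgeR adjusted p = 0.011) and of number 2 from number 1 -1.24 ± 0.22 (SE, edgeR adjusted p = 0.0189). SLC7A11, the cystine carrier, had 136, 88.5 and 146 CPM in control and 111, 57.2 and 143 CPM in knockdown, from library 1 to 3, and SLC7A5, the large neutral amino acid carrier, had 202, 157 and 263 CPM in control and 158, 85.6 and 236 CPM in knockdown, from library 1 to 3. Number 3 exceeded number 2 by 1.02 ± 0.13 (SE, edgeR adjusted p = 0.00895) for SLC7A11 and by 1.09 ± 0.15 (SE, edgeR adjusted p = 0.0116) for SLC7A5. FAM129A, also known as a stress-induced gene, was among the genes of largest difference, with 6.43, 2.16 and 9.52 CPM in control and 6.41, 1.89 and 8.59 CPM in knockdown, from library 1 to 3, and a log2 difference of number 3 from number 2 of 2.15 ± 0.25 (SE, edgeR adjusted p = 0.00657). Levels of FAM129A in the 2 groups were close at each number. ALDH1L2 had 22.2, 13 and 27.1 CPM in control and 13, 2.56 and 23.3 CPM in knockdown, from library 1 to 3, and its call for number 3 against 2 was lost with DESeq2 and with limma voom.

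The 250 bases before the RefSeq start site of CHAC1 are shown. Among the members of this list called in number 2 against 1, CHAC1 had the largest fall. Its window was also the only 1 of 20 matched members' to hold TGATGCAA, a composite CCAAT-enhancer and ATF element searched for on both strands. That element was in 0.923% of all 27305 RefSeq windows of 300 bases, which run from 250 before to 50 after a start. Among the windows of 9877 matched tested genes it was in 0.405%. The sequence is chr15:40953221-40953470 of GRCh38.p14, plus strand, 5′ to 3′, with TGATGCAA (here on the reverse strand, 209 bases before the start) and CCAAT boxes on either strand in capitals.
CHAC1: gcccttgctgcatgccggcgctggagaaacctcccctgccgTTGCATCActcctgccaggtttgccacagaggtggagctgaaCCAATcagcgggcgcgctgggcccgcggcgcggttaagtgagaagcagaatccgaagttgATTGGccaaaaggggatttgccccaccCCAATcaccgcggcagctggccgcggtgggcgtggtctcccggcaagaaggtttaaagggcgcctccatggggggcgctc
CCAAT was in 13 of the 20 matched windows of the list, in 35.7% of all windows and in 36.9% of those of matched tested genes. A match is a string of letters in this window and shows no binding.

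Some sterol and fatty acid synthesis genes were also lower in number 2. Of 25 genes of cholesterol synthesis and uptake, 6 were lower in number 2 than in number 1 (HMGCS1, IDI1, FDFT1, MSMO1, HSD17B7 and SC5D; background 3.6%) and none was higher, at either an adjusted or an unadjusted p under 0.05. The median log2 difference was -0.18 in control and -0.82 in knockdown. MSMO1, a sterol methyl oxidase, was measured at 223, 164 and 225 CPM in the control group (libraries 1 to 3) and 227, 121 and 226 CPM in the knockdown group (libraries 1 to 3). Numbers 1 and 3 were close to each other in each group, and number 2 was lower than both, by 0.67 ± 0.12 (SE, edgeR adjusted p = 0.0188) against number 1. Fatty acid synthesis genes gave 6 lower of 15 against the same background, among them the citrate-cleaving enzyme ACLY at -0.40 ± 0.09 (SE, edgeR adjusted p = 0.0366), with medians of -0.16 and -0.64. Of 8 genes of sterol efflux or targets of the sterol sensor LXR, 3 were higher in number 2 than in number 1 (background 6.34%). They were MYLIP, which marks the LDL receptor for degradation, and the transporters ABCA1 and ABCG1, at 1.48, 1.12 and 0.66. By edgeR none of these 3 lists kept a call in number 2 against 1 without knockdown library 1, where their medians were -0.33, -0.29 and 0.19, against -0.49, -0.40 and 0.34 with all 6. With control libraries 1, 2 and 3 and then knockdown libraries 1, 2 and 3 left out in turn, the number of lower genes was 12, 24, 19, 0, 12 and 19 for cholesterol synthesis and 4, 13, 10, 0, 8 and 10 for fatty acid synthesis. MSMO1 in number 3 against 2 lost its call without knockdown library 3.

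Many mitotic genes were lower in number 2 than in number 1. Of 50 tested G2/M genes 19 were lower (background 3.6%) and none was higher, with 48 lower and 0 higher at an unadjusted p under 0.05. All 50 had the same sign in both groups, and the median log2 difference was -0.21 in control and -1.07 in knockdown, a gap that was not tested. TOP2A, the topoisomerase of replicating and mitotic chromosomes, was measured at 736, 600.2 and 600.2 CPM in the control group (libraries 1 to 3) and 668, 329 and 449.9 CPM in the knockdown group (libraries 1 to 3). Its log2 difference of number 2 from number 1 was -0.65 ± 0.15 (SE, edgeR adjusted p = 0.0324), or -0.29 within control and -1.02 within knockdown. UBE2C, a ubiquitin conjugating enzyme of mitotic exit, had 121, 89.9 and 108 CPM in control and 96.2, 46.6 and 82.9 CPM in knockdown, from library 1 to 3, and CCNB1, the mitotic cyclin B1, had 214, 172 and 202 CPM in control and 196, 98.5 and 154 CPM in knockdown, from library 1 to 3. In each of these genes knockdown library 2 was the lowest of the 6. The number of lower genes was 44, 50 and 46 when control library 1, 2 or 3 was left out, and 0, 31 and 46 when knockdown library 1, 2 or 3 was. The median over both groups was -0.61, and it was -0.34 and -0.28 without knockdown libraries 1 and 2. For number 3 against 1 no gene of the list was called with all 6 libraries (6 lower at an unadjusted p under 0.05), and leaving out the same libraries in turn gave 3, 41, 1, 0, 41 and 0 lower genes.

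Genes of G1/S and DNA replication gave few calls. Of 47 tested, 3 were lower in number 2 than in number 1, against 3.6% of all genes. At an unadjusted p under 0.05, 36 were lower, as were 14.9% of all genes. GINS2, a subunit of the replicative helicase, fell by 0.63 ± 0.13 (SE, edgeR adjusted p = 0.0294) on the log2 scale from number 1 to number 2, a call lost without knockdown library 1 (edgeR adjusted p = 0.304). The list's medians were -0.09 in control and -0.86 in knockdown for number 2 against 1, and -0.28 and -0.55 for number 3 against 1. The number of lower genes in number 2 against 1 was 30, 44 and 32 when control library 1, 2 or 3 was left out, and 0, 11 and 32 when knockdown library 1, 2 or 3 was. In the G1/S and G2/M lists the median gene had 29.2% and 32.7% of its sum of squares with number and 54.4% and 51.6% with group, so here group held more of the variation than number.

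Promoters of the mitotic list are shown because its members moved together and because most matched windows hold the same short motifs. CCAAT was in 29 of 40 matched windows (72.5%) and TTTGAA, the core of the cell cycle homology region, in 27 of 40 (67.5%), against 36.9% and 9.84% of the windows of 9877 matched tested genes. The 250 bases before the start of TOP2A (chr17:40417897-40418146, minus strand) hold 4 CCAAT boxes and 2 TTTGAA strings, and those of CCNB1 (chr5:69166900-69167149, plus strand) hold 2 CCAAT boxes and 0 TTTGAA strings. TMEM97 (chr17:28318950-28319199, plus strand), a sterol-responsive membrane protein of the fatty acid list, is shown beside them with 3 CCAAT boxes. In the fatty acid list CCAAT was in 7 of 14 matched windows. Capitals mark CCAAT and TTTGAA on either strand, from GRCh38.p14, 5′ to 3′.
TOP2A: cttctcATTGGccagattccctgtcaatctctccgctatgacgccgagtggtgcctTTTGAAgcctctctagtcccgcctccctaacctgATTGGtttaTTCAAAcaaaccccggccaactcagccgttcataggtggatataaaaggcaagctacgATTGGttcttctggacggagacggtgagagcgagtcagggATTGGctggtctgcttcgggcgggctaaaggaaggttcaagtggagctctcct
CCNB1: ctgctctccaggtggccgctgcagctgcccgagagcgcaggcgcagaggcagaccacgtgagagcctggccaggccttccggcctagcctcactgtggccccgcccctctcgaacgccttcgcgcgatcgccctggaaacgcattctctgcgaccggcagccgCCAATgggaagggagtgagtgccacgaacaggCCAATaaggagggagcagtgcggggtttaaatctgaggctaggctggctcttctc
TMEM97: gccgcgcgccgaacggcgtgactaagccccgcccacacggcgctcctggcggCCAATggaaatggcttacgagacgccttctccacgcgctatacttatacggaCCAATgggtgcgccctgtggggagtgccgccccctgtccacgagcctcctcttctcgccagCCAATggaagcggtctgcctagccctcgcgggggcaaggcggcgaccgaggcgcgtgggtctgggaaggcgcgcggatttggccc
A match describes the letters of a window and shows neither binding nor a cause.

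Many ribosomal protein genes were lower in number 2 than in number 1, by small amounts. Of 78 cytosolic ribosomal protein genes, 39 were lower in number 2 than in number 1 (background 3.6%) and 0 were higher, and all 78 had the same sign in both groups. The median log2 difference was -0.25 in control and -0.36 in knockdown. RPSA, a protein of the small subunit, had 574, 448 and 491 CPM in control and 642, 483 and 537 CPM in knockdown, from library 1 to 3. Number 1 was highest in each group. Counts of these genes can include reads of their many processed pseudogenes. Ribosome biogenesis genes gave 8 lower of 36 against the same background (1, 27, 13, 0, 10 and 13 with the 6 libraries left out in turn, control first), with NPM1, the nucleolar protein nucleophosmin, at -0.41 ± 0.10 (SE, edgeR adjusted p = 0.0405). The ribosomal protein count was 4 with DESeq2, and by edgeR it was 3, 76 and 16 when control library 1, 2 or 3 was left out, and 0, 65 and 14 when knockdown library 1, 2 or 3 was, against 74 at an unadjusted p under 0.05 with all 6. The median was -0.30 with all 6 libraries, -0.33 with control library 1 left out and -0.23 with knockdown library 2 left out.

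**Figure D4:**
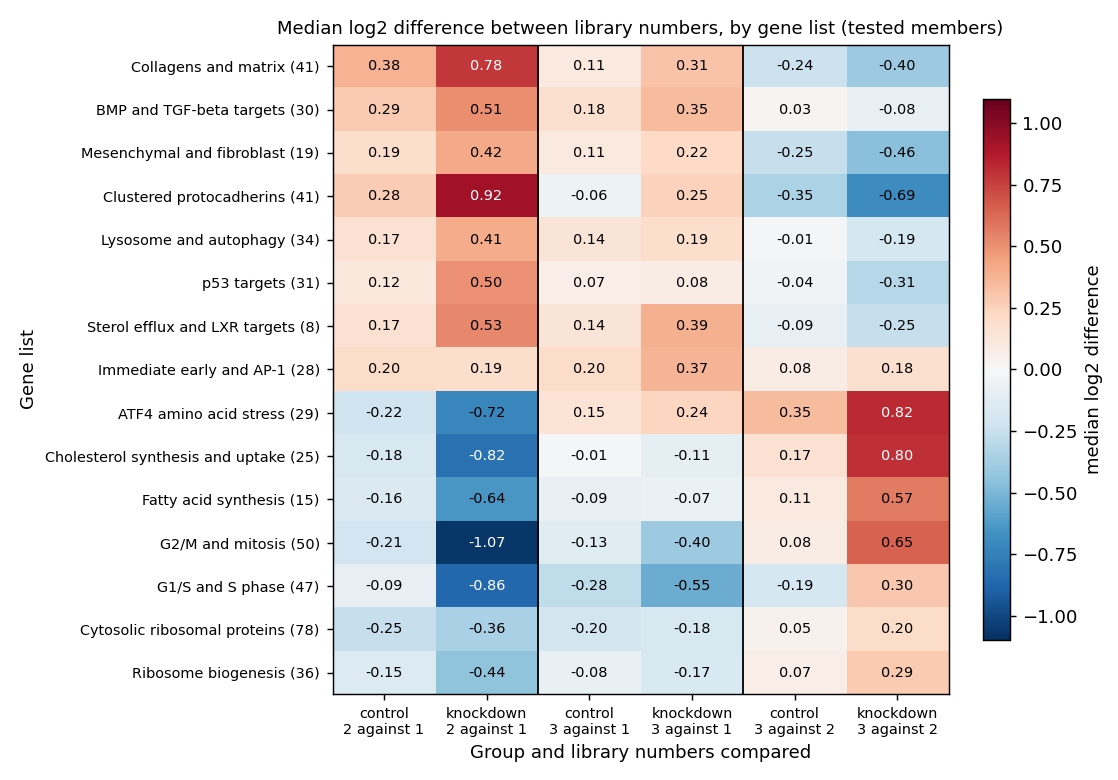
Median log2 difference between library numbers for 15 gene lists (rows, with the number of tested members), separately in control and in knockdown (columns), red for higher and blue for lower. Matrix genes and clustered protocadherins are higher, and ATF4, sterol, mitotic and ribosomal protein genes lower, in number 2 than in number 1 in both groups.

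Some lysosomal and p53 target genes were higher in number 2 than in number 1. Of 34 tested lysosome and autophagy genes 10 were higher (background 6.34%) and none was lower, with medians of 0.17 in control and 0.41 in knockdown. They included the proteases CTSB, CTSD, CTSL and TPP1 and the hydrolases GAA and LIPA. GRN, the lysosomal protein progranulin, had 93.4, 122 and 112 CPM in control and 105, 177 and 131 CPM in knockdown, from library 1 to 3, with number 1 lowest in both groups and a log2 difference of 0.57 ± 0.10 (SE, edgeR adjusted p = 0.0194). Of 31 p53 targets 9 were higher against the same background, among them the cell cycle inhibitor CDKN1A at 0.36 and the death receptor FAS at 0.69, with medians of 0.12 and 0.50. With DESeq2 these counts were 5 and 3. By edgeR the lysosomal count was 7, 23 and 11 when control library 1, 2 or 3 was left out, and 0, 9 and 11 when knockdown library 1, 2 or 3 was, and the p53 count was 10, 21 and 14 when control library 1, 2 or 3 was left out, and 0, 7 and 14 when knockdown library 1, 2 or 3 was, against 18 and 17 higher at an unadjusted p under 0.05 with all 6.

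Of 21 tested heat shock genes 6 were lower in number 2 than in number 1 (background 3.6%), among them HSP90AA1, HSP90AB1, HSPD1 and STIP1, and 1 was higher (background 6.34%). The higher gene, HSPA1A, the inducible HSP70, was at 0.89 ± 0.20 (SE, edgeR adjusted p = 0.0348), a call lost with DESeq2 and without control library 1 or knockdown library 1. Of 28 antioxidant genes 6 were lower in number 2 than in number 1 (background 3.6%), including FTH1, the ferritin heavy chain, at -0.44 ± 0.08 (SE, edgeR adjusted p = 0.0208). WNT pathway genes gave 5 higher of 27 in the same comparison (background 6.34%), with the nuclear effector LEF1 at 0.67, the feedback genes AXIN2 and RNF43 at 0.61 and 1.37, and the antagonists DKK2 and DKK3 at 0.87 and 0.64. In the Notch list, with 4 higher and 1 lower of 17 against these backgrounds, JAG1, a ligand, was higher by 0.67 and NRARP, a target of the receptor, lower, at -1.34. Without knockdown library 1 edgeR called no heat shock, antioxidant, WNT or Notch gene in number 2 against 1. With control libraries 1, 2 and 3 and then knockdown libraries 1, 2 and 3 left out in turn, 2, 12, 5, 0, 7 and 5 heat shock genes and 1, 17, 8, 0, 7 and 8 antioxidant genes were lower, and 5, 14, 8, 0, 5 and 8 WNT genes were higher.

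Several structural RNAs were highest in number 1. A list of nuclear and non-coding RNAs, which holds some of them, had 24 tested genes and did not move as one. In number 2 against 1, 2 were higher and 4 lower (backgrounds 6.34% and 3.6%). In number 3 against 1, 1 was higher and 4 were lower (backgrounds 1.38% and 0.698%). The list's medians were -0.08 and 0.08. RNA45S5, the ribosomal RNA precursor, had the smallest p of all genes for any difference between numbers (edgeR adjusted p = 0.000776) and was measured at 219, 106 and 80.4 CPM in the control group (libraries 1 to 3) and 250.3, 110.1 and 92.9 CPM in the knockdown group (libraries 1 to 3). Both libraries of number 1 were above the other 4, with log2 differences of -1.12 ± 0.08 (SE, edgeR adjusted p = 0.000865) for number 2 and -1.44 ± 0.08 (SE, edgeR adjusted p = 0.000428) for number 3. RMRP, the RNA of the nuclease that processes ribosomal RNA, had 8.46, 1.39 and 0.577 CPM in control and 8.07, 0.81 and 1.26 CPM in knockdown, from library 1 to 3, which is 46, 9 and 4 counts in control and 39, 6 and 12 in knockdown. Its log2 difference of number 3 from number 1 was -3.07 ± 0.37 (SE, edgeR adjusted p = 0.0073). RN7SK, a regulator of transcription elongation, and RN7SL1, of the signal recognition particle, were lower in number 3 than in number 1 by 1.51 and 1.32. Without knockdown library 1 the log2 difference was -1.75 for RN7SK and -1.08 for RN7SL1. Repeats of RNA45S5 and near-identical copies of RN7SL1 and RN7SK make the assignment of their reads uncertain.

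The summed level of 5 such RNAs (RNA45S5, RNA28S5, RN7SL1, RN7SL2 and RN7SK) was 424, 222 and 170.3 CPM in control and 457, 215 and 197 CPM in knockdown libraries 1, 2 and 3. Depth and base composition moved with it. Number 1 had the fewest counts in both groups, and across 12904 genes the Spearman correlation of GC content with the log2 difference of number 2 from number 1 was 0.22 in control and 0.18 in knockdown, and for number 3 from number 1 it was 0.22 and 0.28. Genes called higher in number 2 than in number 1 had a median GC content of 55.2%, those called lower 44.9%, and all tested genes 47.9%. With GC content and length removed, the matrix list kept 20 higher genes against 25, the ATF4 list had 15 lower against 11, and the mitotic list 27 against 19. With every library thinned to the smallest total the counts were 25, 11 and 18. The part of RNA composition in the differences of number 1 beyond these fits was not tested.

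Among protein-coding genes highest in number 1, LIN28B, an RNA-binding protein that blocks let-7 microRNA in early progenitors, was measured at 232, 156 and 169 CPM in the control group (libraries 1 to 3) and 247, 163 and 173 CPM in the knockdown group (libraries 1 to 3). In both groups number 1 was highest, with log2 differences of -0.58 ± 0.08 (SE, edgeR adjusted p = 0.0086) for number 2 and -0.48 ± 0.07 (SE, edgeR adjusted p = 0.0176) for number 3. ZBTB16, a transcription factor of neural rosettes, was lower in number 3 than in number 1, at -0.92 ± 0.16 (SE, edgeR adjusted p = 0.0255). SOX1 and SOX2, pan-neural transcription factors, were lower in number 2 than in number 1 by 0.87 and 0.36 on the log2 scale. LIN28B in number 2 against 1 and ZBTB16 in number 3 against 1 lost their calls without knockdown library 1 (edgeR adjusted p = 0.136 and 0.273). The 26 neural stem genes as a list gave 1 higher (background 6.34%) and 3 lower (background 3.6%) in number 2 against 1, with medians of -0.06 and -0.12. The 3 lower genes were SOX1, SOX2 and LIN28B, and the number of lower genes was 5, 13 and 6 when control library 1, 2 or 3 was left out, and 0, 6 and 6 when knockdown library 1, 2 or 3 was.

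Of 19 tested genes of neuronal differentiation, 1 (CRMP1) was higher and 2 (ELAVL3 and DPYSL3) were lower in number 2 than in number 1, against 6.34% and 3.6% of all genes. In number 3 against 2, TUBB3, ELAVL3 and INA were higher (background 0.44%). ELAVL3, a neuronal RNA-binding protein, was measured at 22.2, 9.88 and 32.9 CPM in the control group (libraries 1 to 3) and 13.2, 2.7 and 18.8 CPM in the knockdown group (libraries 1 to 3). In each group number 2 was lowest and number 3 highest, with log2 differences of -1.55 ± 0.26 (SE, edgeR adjusted p = 0.0177) for number 2 from number 1 and 2.10 ± 0.24 (SE, edgeR adjusted p = 0.00543) for number 3 from number 2. TUBB3, neuronal beta-tubulin, had 137, 132 and 191 CPM in control and 132, 88.8 and 199 CPM in knockdown, from library 1 to 3, and INA, a neuronal intermediate filament, had 46.9, 40.2 and 56.7 CPM in control and 40.3, 36 and 58.6 CPM in knockdown, from library 1 to 3. Both were higher in number 3 than in number 2, by 0.84 and 0.60. ELAVL3 in number 2 against 1 lost its call without knockdown library 1 (edgeR adjusted p = 0.0976), and INA lost its call without knockdown library 3. Only 19 of 44 neuronal genes passed the filter on low counts, and NEUROD1, RBFOX3 and SLC17A6 had 0 counts in every library. The summed level of these 19 was 1668 and 1674 CPM in number 1, 1311 and 1580 CPM in number 2 and 1675 and 1796 CPM in number 3.

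Some markers of mesenchymal and endothelial cells also differed between numbers. The 19 mesenchymal and fibroblast genes that passed the filter summed to 4275 and 4880 CPM in number 1, 4914 and 6476 CPM in number 2 and 4508 and 5711 CPM in number 3, and 6 of them were higher in number 2 than in number 1 (background 6.34%). Leaving out control libraries 1, 2 and 3 and then knockdown libraries 1, 2 and 3 in turn gave 7, 12, 9, 2, 8 and 9. In number 3 against 2, 4 of the 19 were lower (background 0.986%) and 0 were higher. For number 2 against 1 the list's median log2 difference was only 0.15, and 12 of the 19 had the same sign in both groups. The matrix and mesenchymal lists share members such as COL1A1 and COL5A1. TWIST1, a mesenchymal transcription factor, was higher by 0.56 on the log2 scale. In number 3 against 1, 3 of the 19 were higher (background 1.38%) and 1, LUM, was lower (background 0.698%). The list's median there was 0.17. LUM, the proteoglycan lumican, had 31.6, 24.7 and 13.8 CPM in control and 37.2, 29.7 and 18.6 CPM in knockdown, from library 1 to 3 , and was lowest in number 3, at -1.08 ± 0.13 (SE, edgeR adjusted p = 0.0073) from number 1. KDR, the VEGF receptor that endothelium and some neural progenitors carry, had 88.6, 181 and 131 CPM in control and 95, 189.7 and 189 CPM in knockdown, from library 1 to 3, with number 1 lowest and a difference of number 2 from number 1 of 1.01 ± 0.12 (SE, edgeR adjusted p = 0.00697). Without knockdown library 1 that difference had an edgeR adjusted p of 0.0555. The 11 endothelial genes that passed the filter summed to 219.3 and 242.9 CPM, 354 and 383 CPM, and 289 and 408 CPM in numbers 1, 2 and 3, while SOX17 was at 0. KDR is 1 of the 11 and made up a large part of these sums. Of the 11, 2 were higher and 0 lower in number 2 than in number 1 (background 6.34% higher). In number 3 against 1, 3 were higher and 0 lower (background 1.38% higher), and 7 of the 11 had the same sign in both groups. DESeq2 called 1 higher gene in each of these 2 comparisons. The list's medians for them were 0.49 and 0.47 with all 6 libraries, and 0.31 and 0.33 without knockdown library 1. In bulk libraries a change in the share of a cell type and a change of RNA per cell cannot be told apart, and the part of such cells in these differences was not tested.

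Some clustered protocadherins and HOXB genes were lower in number 3 than in number 2. Of 41 tested clustered protocadherins, neural adhesion genes that each cell expresses in a random choice of isoforms, 8 were lower in number 3 than in number 2 (background 0.986%) and 1, PCDHGB6, was higher (background 0.44%). The medians were -0.35 in control and -0.69 in knockdown. In number 2 against 1, 7 were higher (background 6.34%) and none was lower, with 20 higher and 1 lower at an unadjusted p under 0.05. The number of higher genes there was 10, 24 and 16 when control library 1, 2 or 3 was left out, and 0, 9 and 17 when knockdown library 1, 2 or 3 was. PCDHA12 (chr5:140875308-141012347 in GRCh38.p14) was measured at 3.12, 11.1 and 2.74 CPM in the control group (libraries 1 to 3) and 6.21, 22.8 and 3.46 CPM in the knockdown group (libraries 1 to 3). Number 2 was highest and number 3 lowest in both groups, with a log2 difference of number 3 from number 2 of -2.46 ± 0.23 (SE, edgeR adjusted p = 0.00381). That of number 3 from number 1, -0.60 ± 0.31 (SE, edgeR adjusted p = 0.316), did not pass the test. In number 3 against 1 edgeR called 0 protocadherins in either direction, with 4 higher and 4 lower at an unadjusted p under 0.05. PCDHGA10, at 32.9, 51.6 and 18.3 CPM in control and 34.8, 87 and 17.3 CPM in knockdown, from library 1 to 3, differed by -1.96 ± 0.19 (SE, edgeR adjusted p = 0.00381). The number of lower genes in number 3 against 2 was 9, 22 and 10 when control library 1, 2 or 3 was left out, and 9, 9 and 6 when knockdown library 1, 2 or 3 was. Isoforms of the alpha and gamma clusters share their 3′ exons, so how reads were split among them is uncertain.

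HOXB2 and HOXB3, adjacent homeotic genes of hindbrain identity on chromosome 17, were with IRX2 the regional identity genes, of 16 tested, that differed between any numbers (background 6.13%). HOXB2 (chr17:48542655-48545109 in GRCh38.p14) was measured at 16.9, 26.6 and 8.22 CPM in the control group (libraries 1 to 3) and 15.7, 27.7 and 7.85 CPM in the knockdown group (libraries 1 to 3). Control and knockdown were nearly equal at each number, and number 3 was lowest in both, with log2 differences of -1.76 ± 0.15 (SE, edgeR adjusted p = 0.00381) from number 2 and -1.02 ± 0.17 (SE, edgeR adjusted p = 0.0217) from number 1. HOXB3 had 3.86, 5.87 and 2.02 CPM in control and 2.9, 7.29 and 1.15 CPM in knockdown, from library 1 to 3, and differed between numbers 3 and 2 by -2.10 ± 0.34 (SE, edgeR adjusted p = 0.0237). HOXB3 lost this call without knockdown library 3, while HOXB2 kept it in each alternative with the group block. Antisense transcripts lie within the HOXB cluster, and the strand setting of the counting is not given in the sources used here.

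EMC10 (chr19:50476507-50490871 in GRCh38.p14), a subunit of the membrane protein insertion complex of the endoplasmic reticulum, had the largest fall from number 2 to number 3 among called genes whose libraries did not overlap between numbers and averaged at least 5 CPM, at 5.33, 9.11 and 1.59 CPM in the control group (libraries 1 to 3) and 3.93, 15.2 and 2.09 CPM in the knockdown group (libraries 1 to 3) and a log2 difference of -2.71 ± 0.31 (SE, edgeR adjusted p = 0.00608). XKR8, a lipid scramblase, ZNF793, a zinc finger gene, and TMEM132C fell by 2.45, 2.42 and 2.39. C17orf51, an uncharacterised gene, had 21.5, 29.3 and 9.38 CPM in control and 22.6, 28.6 and 6.49 CPM in knockdown, from library 1 to 3, with number 3 lowest and the 2 groups close at each number. IFITM1, an interferon-induced membrane protein, had 32.2, 29 and 15 CPM in the control group (libraries 1 to 3) and 31.9, 28.3 and 14.2 CPM in the knockdown group (libraries 1 to 3). In IFITM1 numbers 1 and 2 were close and number 3 was lower in both groups, at -1.13 ± 0.13 (SE, edgeR adjusted p = 0.00611) from number 1. Of 27 tested interferon genes, 2, IFITM1 and IFITM3, were lower in number 3 than in number 1 (background 0.698%), and the list's medians were 0.03 in control and 0.08 in knockdown.

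**Figure D5:**
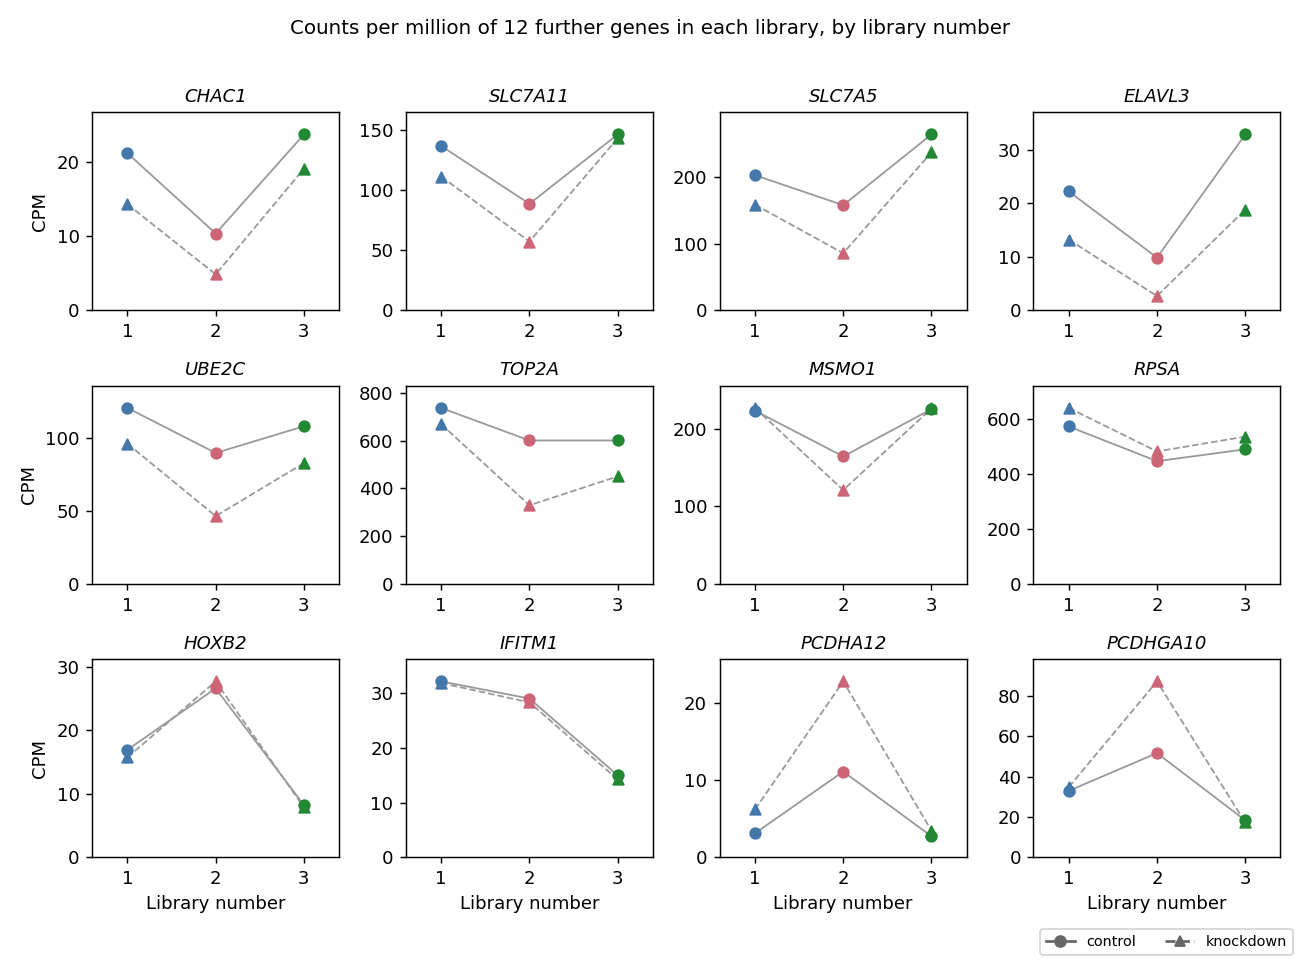
CPM (y axis, linear, from 0) of 12 further genes by library number (x axis), with control libraries as circles on solid lines and knockdown libraries as triangles on dashed lines, 1 library per point. CHAC1, SLC7A11, SLC7A5, ELAVL3, UBE2C and MSMO1 dip in number 2 in both groups, and HOXB2, IFITM1, PCDHA12 and PCDHGA10 are lower in number 3 than in number 2.

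Several further lists held small numbers of called genes. Of all genes, 6.34% were higher and 3.6% lower in number 2 than in number 1. Between any numbers 6.13% differed, and 0.986% were lower in number 3 than in number 2. For any difference the circadian list was at 13.6% and the glycolysis and hypoxia list at 7.89%. Glycolysis and hypoxia genes had 1 higher and 2 lower of 38 in number 2 against 1, with the hexokinase HK2 lower, at -0.79 ± 0.15 (SE, edgeR adjusted p = 0.0216), a call lost without knockdown library 1 (edgeR adjusted p = 0.25). Of 22 chaperones and unfolded protein response genes of the endoplasmic reticulum, 1, HYOU1, was higher in number 2 than in number 1, at 0.30 ± 0.08 (SE, edgeR adjusted p = 0.0499). This call was lost in 7 of the 14 alternatives that kept the group block, among them DESeq2 and leaving out control library 1 or 3 or knockdown library 1 or 3. HSPA5, the main chaperone there, had 608, 566 and 679 CPM in control and 676, 635 and 819.5 CPM in knockdown, from library 1 to 3. Of 22 circadian genes 3 differed between any numbers, namely BHLHE41, CIART and BHLHE40. The Hedgehog list had 1, the transcription factor FOXC1, at -0.62 ± 0.09 (SE, edgeR adjusted p = 0.0195) for number 3 against 2, a call lost with DESeq2 and without knockdown library 3. Of the 45 nuclear genes of oxidative phosphorylation 2 were lower in number 2 than in number 1, with medians of -0.13 and -0.30.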

How the data were processed

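Raw read counts per gene symbol were deposited for 6 libraries of total RNA, prepared with a strand-specific kit per the labels' protocols. The authors' tools, per the submitters' processing notes, included Trim Galore 0.6.6, STAR 2.7.10a and bedtools with build GRCh38. Which program counted the reads, with what annotation and strandedness, is not given in the sources used here. Totals of the deposited counts per library are given with the results, and low counts limit the precision of weakly expressed genes.

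Counts were scaled with TMM factors and fitted with edgeR 4.0.16 (R 4.3.3) by the quasi-likelihood test, with library number and group as terms and 2 residual degrees of freedom. Genes were kept by the tool's own filter on low counts with number as the grouping, which left 13179 genes, and p-values were adjusted over all of them by Benjamini-Hochberg at 0.05. CPM are TMM-scaled, and log2 CPM for differences within a group used a prior count of 2. Each standard error was derived from the fitted log2 difference and its F statistic. A list's median is over its tested members. The scripts were tested on simulated counts.

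Named genes were the 6 higher and 6 lower genes of largest difference per comparison among called genes with a mean of at least 5 CPM, the same direction in both groups and no overlap between numbers, the 6 genes of smallest p for any difference at that level, and up to 4 genes per list with the smallest p. Other list members were named where they describe a list. XIST and Y-linked genes were left out, and some other genes are not reported here. The members, lists and rules were chosen with earlier results of these data known. The alternatives were 2 other scalings, 2 other filters, DESeq2 1.42.0, limma 3.58.1 (voom), no group block, 2 other thresholds, thinning to the smallest library, removal of the trend with GC content and transcript length, and leaving out each library. Promoter sequences are from RefSeq (GRCh38.p14).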

Additional observations from a re-analysis of the deposited data

Results flagged for a closer look

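Named genes were looked at where the difference was at least 0.5 log2 units in each group, and list medians where it was at least 0.1 in each. Under these limits 2 results had control and knockdown libraries moving in opposite directions, both between numbers 3 and 2. The median log2 difference of number 3 from number 2 over 47 genes of G1/S and S phase was -0.19 in control and 0.3 in knockdown. For SMOC1, a secreted BMP antagonist, the same difference was -0.71 in control and 0.54 in knockdown. Each group has 1 library per number, so the difference between groups was not tested, and 1 library in each group sets the sign.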

How the results depend on the processing

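No paired analysis was possible because the library number that would pair the libraries is itself the term tested. Against 808 genes for any difference and 1310, 274 and 188 for number 2 against 1, 3 against 1 and 3 against 2, the counts with no filter on low counts were 2381, 2346, 836 and 701. With DESeq2 they were 452, 454, 177 and 122. At an adjusted p of 0.01 they were 109, 60, 49 and 36, and with a difference of at least 1 log2 unit 276, 231, 90 and 93. With no group block edgeR called 0, 0, 0 and 0, beside 1714, 2145, 1341 and 1089 at an unadjusted p under 0.05. Leaving out 1 library gave 235 to 6328, 21 to 5078, 37 to 3311 and 108 to 4189. With RLE factors, total count only, a filter of at least 1 CPM in 3 libraries, voom, thinning, and GC content and length removed, each count was within 1.5 times. The cause of these shifts was not tested. For named genes no direction changed in 2801 comparisons over 187 results, while 382 lost and 147 gained a call. Of 1755 comparisons of list medians 50 changed sign at any size, and 248 moved by more than 1 SD of the list's medians in the 2 groups. The 7 medians of at least 0.1 that moved by more than 1 SD to 0 or past it are given next. The Hedgehog median for number 2 against 1 was -0.03 with GC content and length removed, the astroglial median for number 3 against 2 was -0.03 and the NF-kB median for number 3 against 1 was 0 with no filter. Leaving out 1 library gave -0.54 to 0.01 for the G2/M and -0.18 to 0 for the neural stem median of number 3 against 1, -0.25 to 0.14 for the endothelial median of number 3 against 2, and -0.08 to 0.34 for the NF-kB median of number 3 against 1.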
